A study of Mus musculus with 8 samples.

Results

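The integrin, laminin and nidogen genes were taken from the deposited tables by their symbols: every Itga gene, Itgb1 to Itgb8, every Lama, Lamb and Lamc gene, and Nid1 and Nid2. The rule gave 39 of 29713 genes, made up of 18 integrin α genes, 8 integrin β genes, 11 laminin genes and 2 nidogen genes. Their RNA was measured by sequencing in 8 mouse libraries, each the only 1 of its group. Neuron and glia were taken from brain of strain C57, as were the brain regions cerebellum, cortex and hippocampus. The library labelled R1 ESC carries the name of an embryonic stem cell line of strain 129X1 x 129S1, with the inner cell mass as its source. Fibroblasts of day 13.5 embryos (MEF) came from strains ICR (ICR MEF) and OG2 (OG2 MEF). No group was described as treated. The sources used here do not give the age or sex of the animals or how neurons and glia were isolated.

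Integrins are cell surface receptors made of 1 α and 1 β chain that bind extracellular matrix or other cells and link them to the actin cytoskeleton. Laminins are trimers of an α, a β and a γ chain, and the α chain carries the main binding sites for integrins. Laminin networks and type IV collagen form the basement membrane, the sheet under epithelia and around vessels and muscle, and nidogens bind both. In brain such a sheet lies along the vessels and at the pial surface, where astrocyte endfeet meet it.

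Values are TPM, transcripts in a fixed total number of transcripts, scaled by gene length, and the expected counts behind them. With 1 library per group there was no spread between replicates, no test was possible, and each difference is a difference between these libraries. A gene was called higher on one side of a comparison when each library on that side had at least 10 TPM and, with 1 TPM added, exceeded each library on the other side at least 4-fold. Counts of called genes are out of those at 10 TPM or more in at least 1 library of the comparison. Each fold below is between those libraries, on TPM with nothing added, with an exact Clopper-Pearson 95% interval that covers counting error only.

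Total expected counts lay between 2147004 in the library labelled R1 ESC and 5864673 in glia, and 3 counts on a gene of 2000 bases were worth 0.461 to 0.943 TPM. Ribosomal protein genes took 17.6% of the TPM of neuron, 48.9% of that of the library labelled R1 ESC and 19.8% and 20.8% of that of ICR MEF and OG2 MEF, against 4.53% to 7.33% in the other 4 libraries. Summed marker genes went with most labels, though single genes did not always. The 5 neuron markers summed to 4420 TPM in neuron and 299 TPM in glia, against 5576 to 5585 TPM in the brain regions. Stmn2 made up 2852 TPM in neuron, and Rbfox3, Snap25, Syt1 and Syp were lower there than in each brain region. The 5 astrocyte markers summed to 2155 TPM in glia, against 860 to 1410 TPM in the brain regions. Gfap, at 1492 TPM, and Aldh1l1 were higher in glia than in each brain region, Slc1a2 and Gja1 lower, and Aqp4 lay within their range. In glia the 5 oligodendrocyte markers summed to 8.03 TPM, with Mog and Sox10 at 0 counts. The 6 pericyte and smooth muscle markers summed to 6742 TPM in glia, of which Acta2, smooth muscle actin, made up 4147 TPM. The library labelled R1 ESC had 20.2 TPM of Pou5f1, 10.3 TPM of Nanog and 4.8 TPM of Sox2 among 5 pluripotency markers. Of these, Pou5f1 and Nanog were higher in it than in any other library. Esrrb was at 0 counts in it and Zfp42 at 0 counts in every library. It also had 142 TPM of Krt14, a keratin of stratified epithelia. Its label is therefore given as a label throughout.

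All 39 genes had at least 1 count in some library. Of these, 2 (Itgb1 and Itgav) stood at 10 TPM or more in every library and 14 stayed under 10 TPM in every library. The highest library was glia for 15 genes, a brain region for 12, an MEF library for 8, the library labelled R1 ESC for 3 and neuron for 1. Of those highest in a brain region, only Itga4, Itga7 and Itga8 reached 10 TPM in any library. Itgad, Itgae, Itgax and Itgb6 among them had 5 to 9 counts over all libraries together. Summed over the 39 genes, TPM came to 133.7 in neuron, 3076 in glia, 411 in cerebellum, 382 in cortex, 375 in hippocampus, 610.2 in the library labelled R1 ESC, and 2481 and 2348 in ICR MEF and OG2 MEF. They stood high in glia and in both MEF libraries and lowest in neuron. These TPM rest on the effective length that RSEM gives each gene in each library from the mix of transcripts it estimates. With 1 length per gene, its median over the libraries, the sum came to 67.9 TPM in neuron and 240.1 TPM in the library labelled R1 ESC, against 350.2 to 417 TPM in the brain regions. With the deposited lengths the library labelled R1 ESC lay above the brain regions and with 1 length below them, and Itgav alone gave 346 TPM of its deposited sum. In these bulk samples, fewer cells of a type and less RNA per cell cannot be told apart.

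**Figure D1:**
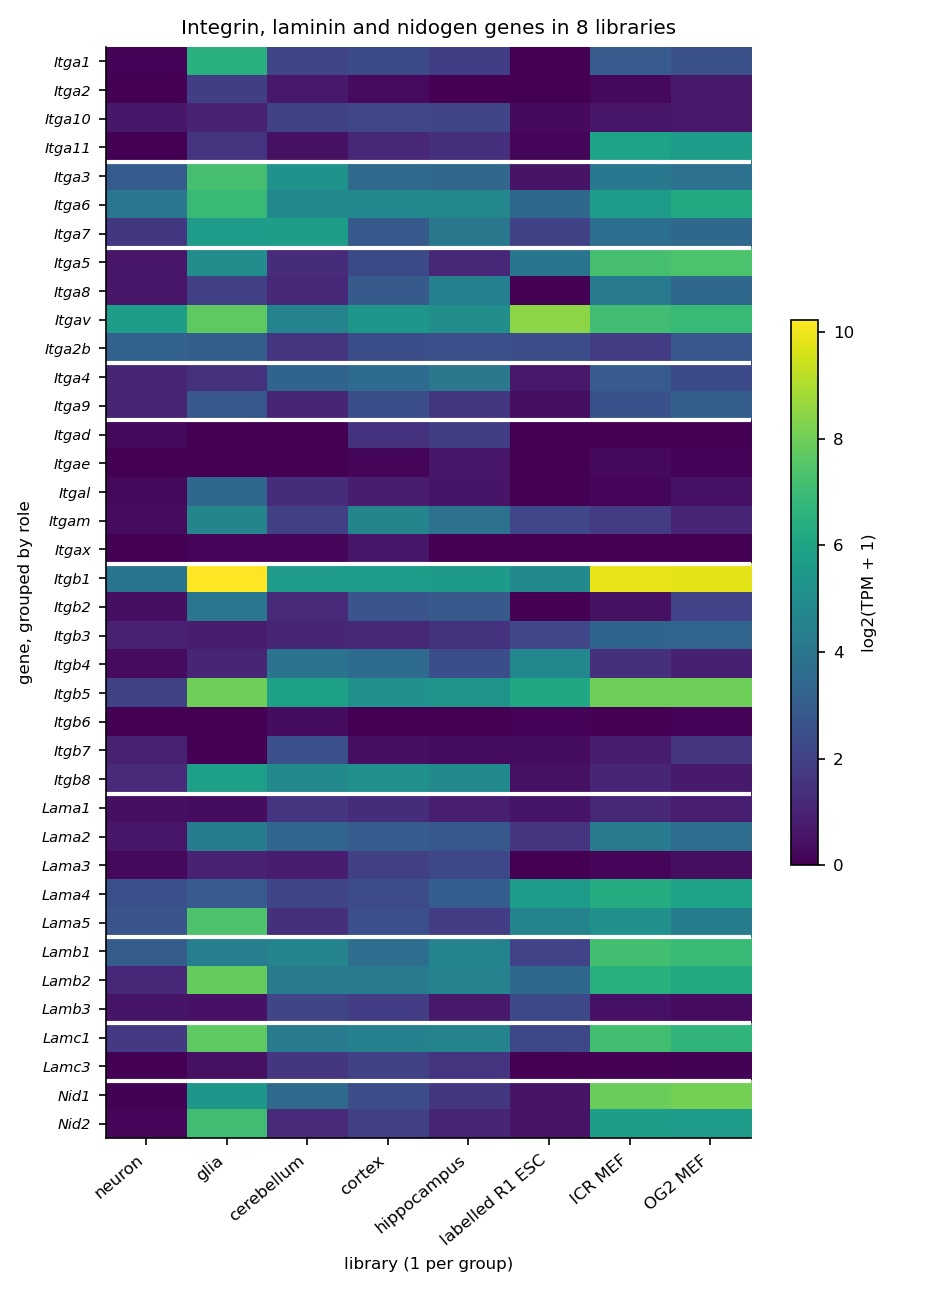
Level of the genes of these families (rows, grouped by role, white lines between roles) in the 8 libraries (columns), as log2(TPM + 1) from dark (0) to yellow. Itgb1 is the brightest row, with 1203 TPM in glia, 959.7 TPM in ICR MEF and 909 TPM in OG2 MEF, and the neuron column is dark for most rows.

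The start regions of 5 genes that differ in where they were high, chosen after their values were seen, are printed to show what lies before them. Each is the window from 250 bases before to 50 bases after a RefSeq transcript start (GRCm38.p6, the assembly also called mm10), written 5′ to 3′ on the gene's own strand. Capitals mark matches, on either strand, to GAGGAA, a core that the myeloid factor PU.1 binds, or to GGAATG, a core that TEAD factors bind. Itgb1 (chr8:128685404-128685703, plus strand) was high in glia and MEF, Itga5 (chr15:103366742-103367041, minus strand) and Nid1 (chr13:13437352-13437651, plus strand) were highest in MEF, Itgb8 (chr12:119238227-119238526, minus strand) was high in glia and brain, and Itgam (chr7:128062390-128062689, plus strand) was high in glia, cortex and hippocampus.
Itgb1: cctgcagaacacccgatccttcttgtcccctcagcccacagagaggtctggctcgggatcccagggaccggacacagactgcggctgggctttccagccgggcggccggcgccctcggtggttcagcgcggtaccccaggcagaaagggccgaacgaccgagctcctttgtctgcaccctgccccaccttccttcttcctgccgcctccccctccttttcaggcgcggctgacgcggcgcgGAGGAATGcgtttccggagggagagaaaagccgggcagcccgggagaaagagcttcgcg
Itga5: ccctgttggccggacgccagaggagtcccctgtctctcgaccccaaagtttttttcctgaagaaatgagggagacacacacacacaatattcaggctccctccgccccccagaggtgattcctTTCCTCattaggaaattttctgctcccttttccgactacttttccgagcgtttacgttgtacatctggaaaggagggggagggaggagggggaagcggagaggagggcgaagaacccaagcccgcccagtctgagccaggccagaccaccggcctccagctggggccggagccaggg
Nid1: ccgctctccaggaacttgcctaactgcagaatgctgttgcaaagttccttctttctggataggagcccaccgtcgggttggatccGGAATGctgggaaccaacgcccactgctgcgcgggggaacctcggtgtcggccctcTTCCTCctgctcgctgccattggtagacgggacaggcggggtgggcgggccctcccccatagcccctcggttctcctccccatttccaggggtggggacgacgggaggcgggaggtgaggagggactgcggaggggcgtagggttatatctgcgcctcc
Itgb8: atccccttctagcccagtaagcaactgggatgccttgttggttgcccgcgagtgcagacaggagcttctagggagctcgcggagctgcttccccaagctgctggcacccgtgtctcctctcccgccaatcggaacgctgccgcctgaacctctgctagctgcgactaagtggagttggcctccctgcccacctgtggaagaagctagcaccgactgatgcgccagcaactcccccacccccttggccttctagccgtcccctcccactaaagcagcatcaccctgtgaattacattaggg
Itgam: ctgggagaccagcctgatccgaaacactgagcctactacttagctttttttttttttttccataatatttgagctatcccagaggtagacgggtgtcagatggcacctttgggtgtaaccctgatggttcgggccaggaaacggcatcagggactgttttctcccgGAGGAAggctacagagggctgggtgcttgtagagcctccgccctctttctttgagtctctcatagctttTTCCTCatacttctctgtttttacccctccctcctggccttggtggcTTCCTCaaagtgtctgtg
The Itgb1 window held 1 match to each core, which overlap in GAGGAATG. Itga5 held 1 match to GAGGAA, Nid1 1 match to each core, Itgam 3 matches to GAGGAA, and Itgb8 none. GAGGAA was found in 15 of the 27 windows of the 24 genes of these families that the table held, or 55.6%, against 28.3% of all 32851 windows. GGAATG was found in 4 of 27 windows, or 14.8%, against 14.7% of all. TGANTCA, the AP-1 site, was found in 3 of 27 windows, or 11.1%, against 7.81% of all, and in none of the 5 printed. A match is a run of letters and not evidence of binding.

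Neuron was set against glia first. None of the 20 genes of these families at 10 TPM or more in either library was called higher in neuron, against 10.4% of all such genes, and 19 were called lower, against 30.5% of all. Over the 32 family genes that averaged at least 1 TPM over the 8 libraries, the median difference of log2(TPM + 1) was -3.30, against -0.74 over all 15686 such genes. The second value moved to -0.06 when the TPM were rescaled with TMM factors of the TPM, and the first then stood at -2.72. With TMM factors of the counts the second stood at -0.56 and the first at -3.10. Lamb1 was the 1 gene at this level that was not called. The 6 pericyte and smooth muscle markers summed to 19.1 TPM in neuron and 6742 TPM in glia, and the 6 fibroblast and meninges markers to 15.4 TPM in neuron and 196.0 TPM in glia. Of the second list, Dcn ran the other way, with 12.7 TPM in neuron and 2.92 TPM in glia. The part of both lists in the 19 differences was not tested.

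Glia stood above the brain regions for 11 of 23 genes, against 6.19% of all genes, and below them for 0, against 8.10% of all. The median over the 32 family genes was 1.35, against -0.16 over all 15686 genes. Without cerebellum Itga3 and Nid1 were also called higher in glia, and 1 gene, Itga4, was called lower. Without hippocampus 1 gene, Itgb4, was called lower in glia. The pericyte and smooth muscle markers summed to 6742 TPM in glia, against 103 to 111 TPM in the brain regions, and the 6 endothelial markers to 4.58 TPM in glia, with Cldn5, Pecam1 and Emcn at 0 counts, against 76.0 to 99.3 TPM in the brain regions. Of the first list Acta2 made up 4147 TPM and Tagln, transgelin, 2565 TPM in glia, and Pdgfrb stood at 25.1 TPM in glia and 8.43 to 10.5 TPM in the brain regions. The other 3 genes of that list were lower in glia than in each brain region. Rgs5 had 2.62 TPM in glia and 63.8 to 73.6 TPM in the brain regions, Myh11 1.59 TPM in glia and 2.26 to 3.72 TPM in the brain regions, and Kcnj8 0 counts in glia and 2.89 to 4.71 TPM in the brain regions. The part of the first list was not tested.

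Against the MEF libraries, 7 of 23 genes were called higher in glia, against 10.05% of all genes, and 5 were called lower, against 2.92% of all. The medians were 0.52 over the family genes and 0.47 over all genes. The brain regions had 1 of 21 genes called higher than in MEF, against 14.5% of all, and 9 called lower, against 5.68% of all. There the medians were -0.92 over the family genes and 0.76 over all genes. Without cerebellum 2 genes, Itgb8 and Itgam, were called higher in the brain regions than in MEF, and without hippocampus 2 genes, Itgb8 and Itgb4, were. Lama5 was also called lower in the brain regions without cortex, at -2.50 (log2), and without OG2 MEF, at -2.68. It was so called too with 0.1 TPM added, CPM or either set of TMM factors. The 6 fibroblast and meninges markers summed to 196.0 TPM in glia and 54.2 to 106.2 TPM in the brain regions, against 7284 TPM in ICR MEF and 6466 TPM in OG2 MEF. Col1a1, Col1a2 and Col3a1 were higher in glia than in each brain region, and Dcn, Lum and Pdgfra lower. Dcn had 2.92 TPM in glia, 22.2 to 61.4 TPM in the brain regions, and 82.6 and 49.45 TPM in ICR MEF and OG2 MEF. The part of these markers was not tested.

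Of the 18 genes measurable there, the library labelled R1 ESC had 1 called higher than in MEF, against 4.49% of all, and 11 called lower, against 44.6% of all. The medians were -1.72 over the family genes and -1.26 over all genes, so much of the downward shift was shared by all genes at this scaling. Rescaled with TMM factors of the TPM, these medians stood at -0.59 and -0.18. The remaining comparisons gave no family gene in either direction. ICR MEF with OG2 MEF had 0 of 17 called, against 0.437% of all genes higher and 0.149% lower. Cerebellum with cortex and hippocampus had 0 of 15 called, against 2.25% higher and 3.01% lower. Without hippocampus 1 gene was called higher in cerebellum, Itga7, and 1 lower, Itgam, and without cortex 1 gene was called lower, Itga8. Cortex with hippocampus had 0 of 14 called, against 0.832% higher and 0.452% lower. The glia, brain and R1 ESC comparisons with MEF share both MEF libraries, and the first 3 comparisons share the glia library.

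**Figure D2:**
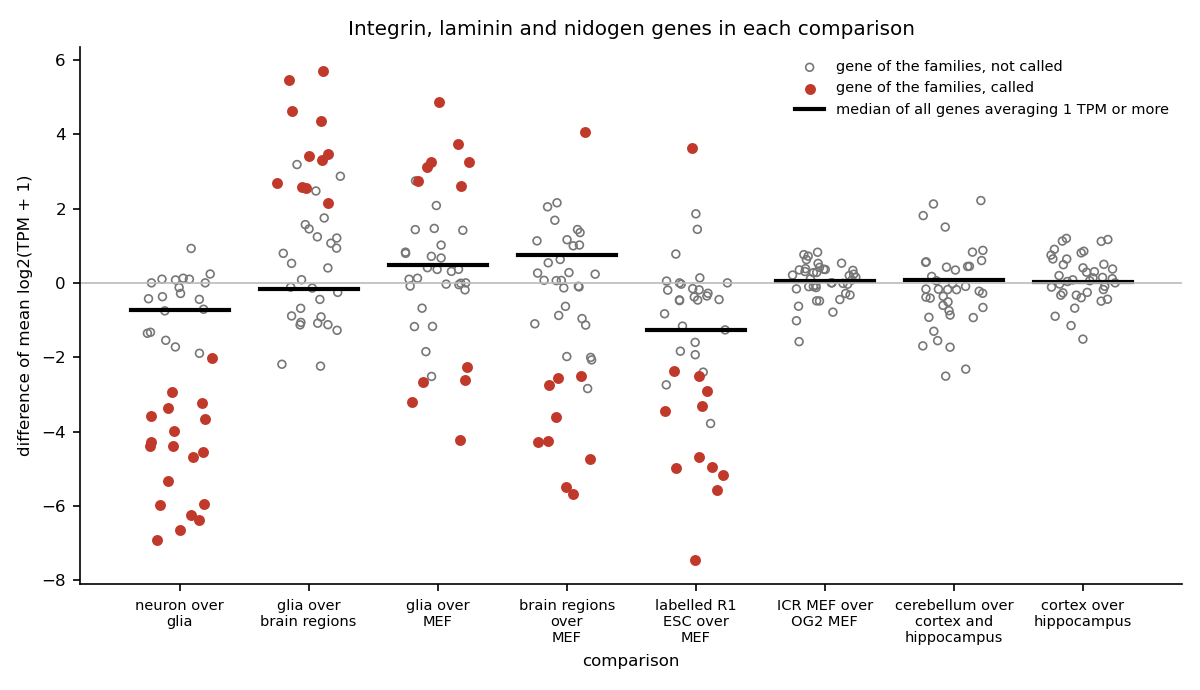
Difference of the mean log2(TPM + 1) between the sides of each of the 8 comparisons (x axis, first side over second), 1 point for each of the 39 genes, filled red where called. Points of the neuron comparison lie mostly below the bar that marks the median of all 15686 genes averaging 1 TPM or more, at -0.74.

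Itgb1 was the most abundant β chain in 6 of the 8 libraries, and Itgb5 in cerebellum and the library labelled R1 ESC. Itgb1 pairs with the α chains for collagen, laminin and fibronectin, and lies at chromosome 8, bases 128685654 to 128733200. Itgb1 had 15.0 TPM in neuron, 1203 TPM in glia, 47.5, 49.6 and 46.8 TPM in cerebellum, cortex and hippocampus, 29.0 TPM in the library labelled R1 ESC, and 959.7 and 909 TPM in ICR MEF and OG2 MEF. Glia and the MEF libraries formed a high set with nothing between it and the other 5 libraries. It was 80.3-fold lower in neuron than in glia (69.0 to 94.1). Glia stood 24.2-fold above cortex (22.0 to 26.8), the highest brain region. Cortex stood 18.3-fold below OG2 MEF (16.6 to 20.3), and the library labelled R1 ESC 31.3-fold below it (28.0 to 35.2).

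Itgb5, the chain of the vitronectin receptor αvβ5 (chromosome 16, bases 33829665 to 33949338), had 3.09 TPM in neuron, 250.2 TPM in glia, 54.8, 35.2 and 38.2 TPM in cerebellum, cortex and hippocampus, 69.7 TPM in the library labelled R1 ESC, and 250.7 and 253 TPM in ICR MEF and OG2 MEF. Glia and MEF were level for it. Neuron was 80.9-fold below glia (55.8 to 122). Glia was 4.57-fold above cerebellum (4.09 to 5.10), and cerebellum 4.57-fold below ICR MEF (4.10 to 5.12).

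Itgb8 makes αvβ8, which releases active TGF-β from its latent form, and lies at chromosome 12, bases 119158022 to 119238802. It had 1.30 TPM in neuron, 53.4 TPM in glia, 27.9, 35.3 and 28.5 TPM in cerebellum, cortex and hippocampus, 0.37 TPM in the library labelled R1 ESC, and 1.13 and 0.66 TPM in ICR MEF and OG2 MEF. Brain stood above MEF for it, the reverse of Itgb1 and Itgb5. Glia was 47.1-fold above ICR MEF (31.5 to 73.8) and cerebellum 24.6-fold above it (16.3 to 38.7). Neuron was 41.3-fold below glia (29.2 to 60.2). Glia was 1.51-fold above cortex (1.38 to 1.67), which met no call.

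Itgb4, whose long tail joins laminin to keratin filaments in hemidesmosomes, was the 1 gene called higher in the library labelled R1 ESC than in MEF. It had 0.24 TPM in neuron, 1.09 TPM in glia, 13.8, 10.9 and 4.48 TPM in cerebellum, cortex and hippocampus, 26.6 TPM in the library labelled R1 ESC, and 1.66 and 0.85 TPM in ICR MEF and OG2 MEF. The fold over ICR MEF was 16.0 (9.73 to 28.2), and 25.8 with 1 length per gene. The 5 epithelial markers summed to 181 TPM in the library labelled R1 ESC, with Krt5 at 0 counts, against 6.55 and 1.53 TPM in ICR MEF and OG2 MEF, with Epcam, Krt5 and Cdh1 at 0 counts in both. Of the 181 TPM, Krt14 made up 142 TPM and Krt8 36.9 TPM. Epcam had 2.01 TPM on 11 counts in that library and Cdh1 0.16 TPM on 2 counts. The part of these markers was not tested. Itgb4 pairs with Itga6 alone, which was lower in that library than in MEF.

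Itgb2, the β chain of leukocyte integrins, had 0.35 TPM in neuron, 15.1 TPM in glia, 1.34, 5.46 and 6.32 TPM in cerebellum, cortex and hippocampus, 0 counts in the library labelled R1 ESC, and 0.39 and 3.16 TPM in ICR MEF and OG2 MEF. Neuron was 43.7-fold below glia, on 3 counts in neuron (14.6 to 215), a call that ended with 5 TPM added, at -1.91 (log2). Itgb3, the chain of αvβ3, was highest in the MEF libraries, with 8.95 TPM in ICR MEF and 9.21 TPM in OG2 MEF, and lay between 0.76 and 3.5 TPM elsewhere. Itgb7, a partner of α4 and αE, reached 4.66 TPM in cerebellum, on 28 counts, and was under 2 TPM in every other library. Itgb6, an epithelial chain, stayed at or under 0.27 TPM.

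**Figure D3:**
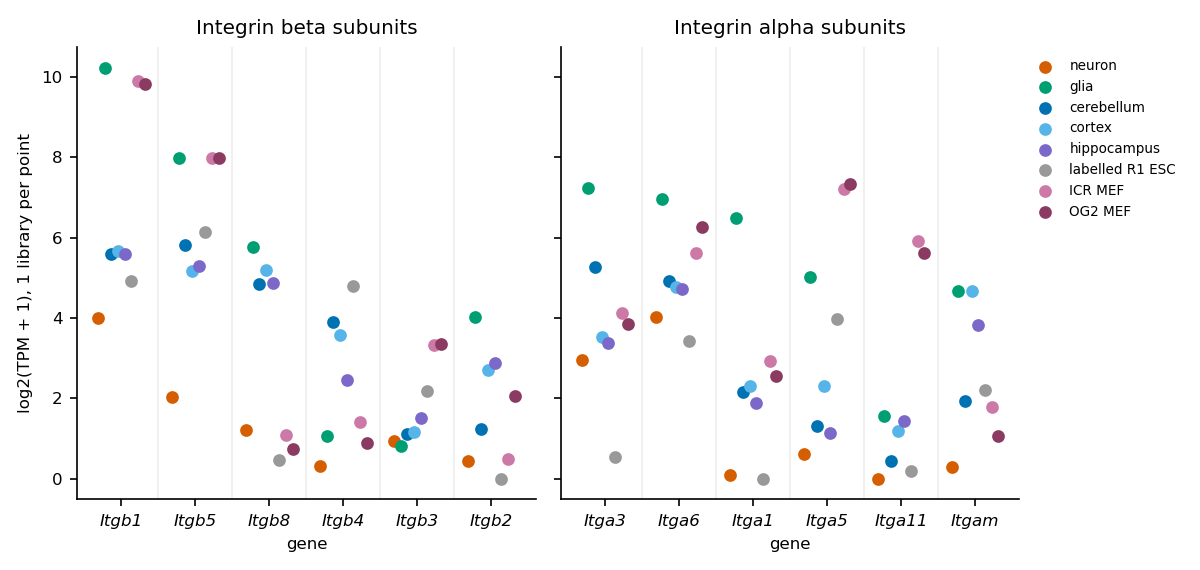
Levels of 6 integrin β genes (left) and 6 α genes (right) as log2(TPM + 1), 1 point per library in the colours of the legend. Itgb1 and Itgb5 are high in glia and both MEF libraries, Itgb8 in glia and the 3 brain regions, and Itgb4 in the library labelled R1 ESC with 26.6 TPM.

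Of the collagen-binding α chains, Itga1 was highest in glia and Itga11 in MEF, and Itga2 and Itga10 were low in every library. Itga1, the α chain of a type IV collagen receptor (chromosome 13, bases 114953096 to 115101964), had 0.06 TPM in neuron, 88.0 TPM in glia, 3.44, 3.91 and 2.71 TPM in cerebellum, cortex and hippocampus, 0 counts in the library labelled R1 ESC, and 6.65 and 4.87 TPM in ICR MEF and OG2 MEF. Glia stood alone at the top. It was 22.5-fold above cortex (17.1 to 30.3) and 13.2-fold above ICR MEF (10.9 to 16.3). Neuron had 1 count against 1446 in glia. Itga11, a receptor for fibrillar collagen found on fibroblasts (chromosome 9, bases 62677826 to 62783982), showed another order, with 59.4 TPM in ICR MEF and 47.9 TPM in OG2 MEF. It had 0 counts in neuron, 1.92 TPM in glia, 0.36, 1.27 and 1.71 TPM in cerebellum, cortex and hippocampus, and 0.14 TPM in the library labelled R1 ESC. Glia was 24.9-fold below OG2 MEF (16.9 to 38.5), hippocampus 28.0-fold (16.3 to 52.9) and the library labelled R1 ESC 333-fold, on 2 counts (92.0 to 2758). Itga2 stayed at or under 2.72 TPM, and Itga10 at or under 3.53 TPM, with its higher values in the brain regions.

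The laminin-binding α chains are Itga3, Itga6 and Itga7. Itga3 (chromosome 11, bases 95044474 to 95076801) had 6.80 TPM in neuron, 149.6 TPM in glia, 37.3, 10.5 and 9.37 TPM in cerebellum, cortex and hippocampus, 0.46 TPM in the library labelled R1 ESC, and 16.5 and 13.4 TPM in ICR MEF and OG2 MEF. Neuron was 22.0-fold below glia (17.9 to 27.4). Glia was 9.08-fold above ICR MEF (7.88 to 10.5). Its fold over cerebellum was 4.01 (3.59 to 4.50), just short of a call once 1 TPM was added, and a call with 0.1 TPM added, CPM, either set of TMM factors or 1 length per gene. The library labelled R1 ESC was 29.4-fold below OG2 MEF, on 6 counts (13.3 to 81.2), which was no call with 5 TPM added, at -1.76 (log2).

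Itga6 (chromosome 2, bases 71745616 to 71858416) had 15.2 TPM in neuron, 123 TPM in glia, 29.2, 26.1 and 25.5 TPM in cerebellum, cortex and hippocampus, 9.71 TPM in the library labelled R1 ESC, and 48.3 and 75.2 TPM in ICR MEF and OG2 MEF. It was 8.06-fold lower in neuron than in glia (5.78 to 11.8), and 34.3-fold lower with 1 length per gene, with 5.16 TPM in neuron and 177 TPM in glia. The library labelled R1 ESC was 4.97-fold below ICR MEF (3.28 to 7.85), and 9.19-fold with 1 length. That call ended with 5 TPM added, at -1.86 (log2), with CPM, at -1.94, and with TMM factors of the counts, at -1.52, or of the TPM, at -0.45. Glia was 4.21-fold above cerebellum (3.61 to 4.93), which was no call with 5 TPM added, at 1.90 (log2). Itga7, known from muscle, had 2.18 TPM in neuron, 49.8 TPM in glia, 50.7, 6.48 and 15.6 TPM in cerebellum, cortex and hippocampus, 2.96 TPM in the library labelled R1 ESC, and 12.5 and 9.69 TPM in ICR MEF and OG2 MEF. Glia and cerebellum were level for Itga7. Neuron was 22.8-fold below glia (15.4 to 35.2). Cerebellum was 3.25-fold above hippocampus (2.60 to 4.10), which met no call, and without hippocampus Itga7 was called higher in cerebellum than in cortex. The leading chain of the 3 was Itga3 in glia at 46.4% of their summed TPM, Itga7 in cerebellum at 43.3%, and Itga6 in the other 6 libraries, at 50.5% to 76.5%. With 1 length per gene, Itga6 led in glia and Itga3 in neuron.

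Of the α chains that bind the RGD motif, Itga5, the fibronectin receptor (chromosome 15, bases 103344286 to 103366763), was highest in MEF. It had 0.54 TPM in neuron, 31.2 TPM in glia, 1.48, 3.94 and 1.20 TPM in cerebellum, cortex and hippocampus, 14.6 TPM in the library labelled R1 ESC, and 145.9 and 159 TPM in ICR MEF and OG2 MEF. Glia lay between MEF and brain, 4.68-fold below ICR MEF (4.18 to 5.25) and 7.90-fold above cortex (5.65 to 11.3). Cortex was 37.0-fold below ICR MEF (26.8 to 52.5), the library labelled R1 ESC 10.02-fold below it (8.58 to 11.8; -1.45 on the log2 scale and no call with TMM factors of the TPM), and neuron 58.0-fold below glia, on 7 counts (27.9 to 145). Itga8, a receptor for nephronectin, had 0.52 TPM in neuron, 2.82 TPM in glia, 1.22, 6.48 and 20.4 TPM in cerebellum, cortex and hippocampus, 0 counts in the library labelled R1 ESC, and 16.9 and 9.59 TPM in ICR MEF and OG2 MEF. Its highest library was hippocampus with the deposited lengths, and ICR MEF with 1 length per gene, with 14.8 TPM in hippocampus and 18.6 TPM in ICR MEF. Cortex was 3.14-fold below hippocampus (2.26 to 4.39). Without cortex it was called lower in cerebellum than in hippocampus. Itga2b, the platelet chain, lay between 1.95 and 8.27 TPM. It had 8.27 TPM in neuron and 7.66 TPM in glia, a fold of 1.08 (0.53 to 2.19), and with 1 length per gene 6.21 TPM in neuron and 7.51 TPM in glia. The 4 platelet markers summed to 59.9 TPM in neuron and 13.5 TPM in glia, with Ppbp and Gp9 at 0 counts in both. Of these sums Gp1bb made up 52.3 TPM in neuron and 1.79 TPM in glia, and Pf4 7.66 TPM in neuron and 11.7 TPM in glia.

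Itgav, the partner of Itgb3, Itgb5, Itgb6 and Itgb8, had 51.0 TPM in neuron, 209 TPM in glia, 22.8, 41.9 and 32.1 TPM in cerebellum, cortex and hippocampus, 346 TPM in the library labelled R1 ESC, and 136 and 118 TPM in ICR MEF and OG2 MEF. These TPM rest on unlike effective lengths. For Itgav the length was 462 bases in neuron and 335 bases under the R1 ESC label, against 4525 to 6226 bases in the other 6 libraries. The library labelled R1 ESC held 334 counts of Itgav and ICR MEF 1706. When every library was given the median length of the gene, Itgav came to 5.17 TPM in neuron, 219 TPM in glia, 30.3, 50.9 and 31.3 TPM in cerebellum, cortex and hippocampus, 25.6 TPM in the library labelled R1 ESC, and 132 and 126 TPM in ICR MEF and OG2 MEF. With that length the library labelled R1 ESC was below the MEF libraries, at -2.26 on the log2 scale, in place of 1.33 with the deposited lengths, and glia had the highest level. The call of Itgav lower in neuron than in glia, 4.09-fold (3.24 to 5.23), held with 1 length, at 42.3-fold, and ended with 5 TPM added, at -1.93 (log2), and with TMM factors of the counts, at -1.80, or of the TPM, at -1.18.

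Effective length differed between libraries by 1.5-fold or more for 20 of the 39 genes, and by 4-fold or more for Itga6, Itgav, Itgad, Lama2, Lama4 and Lama5. Itga6 ran from 727 bases in neuron to 3120.0 bases in glia, Lama2 from 537 bases in the library labelled R1 ESC to 9450.3 bases in neuron, Lama4 from 485 bases in neuron to 5880.2 bases in cortex, and Lama5 from 734 bases in the library labelled R1 ESC to 11216 bases in cerebellum. For most of these, the short lengths were those of neuron or of the library labelled R1 ESC. The 64 calls made for family genes were all kept with 1 length per gene. The order of the libraries changed, with the highest library then glia for 17 genes, a brain region for 11, an MEF library for 9, the library labelled R1 ESC for 2 and neuron for none. Of those then highest in a brain region, only Itga4, at 15.1 TPM, and Itga7, at 50.7 TPM, reached 10 TPM.

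**Figure D4:**
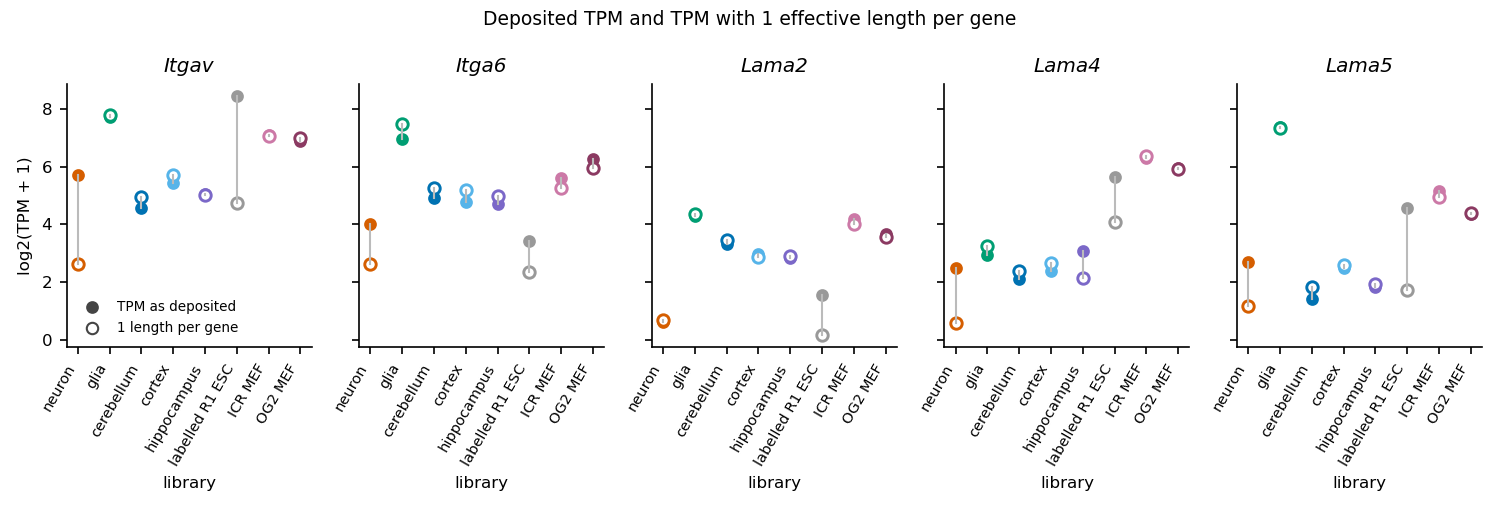
Levels of 5 genes as log2(TPM + 1) in each library, filled points for the deposited TPM and open points with 1 effective length per gene. The Itgav point of the library labelled R1 ESC drops to 25.6 TPM with 1 length, against 346 TPM as deposited, and the glia and MEF points move little.

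The balance of β and α chains was read from the sums. Itgb1 over the summed TPM of the 12 α chains that pair with it was 0.19 in neuron, 1.80 in glia, 0.30, 0.41 and 0.36 in cerebellum, cortex and hippocampus, 0.08 in the library labelled R1 ESC, and 2.11 and 2.02 in ICR MEF and OG2 MEF. Itgb1 thus exceeded its partners in glia and MEF and was below them elsewhere. With 1 length the ratio was 0.68 in neuron, 0.61 under the R1 ESC label, and 0.28 to 2.18 in the same order of libraries elsewhere. Itgav, Itga4 and Itga6 among these partners also pair with other β chains.

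Itga4 and Itga9 bind VCAM-1, fibronectin or tenascin. Itga4 had 1.11 TPM in neuron, 1.73 TPM in glia, 8.84, 10.8 and 15.6 TPM in cerebellum, cortex and hippocampus, 0.61 TPM in the library labelled R1 ESC, and 6.64 and 3.95 TPM in ICR MEF and OG2 MEF. The brain regions stood highest, and glia was 5.12-fold below cerebellum (3.70 to 7.20), with no call, since cerebellum was under 10 TPM and the fold under 4 with 1 TPM added. Cerkl, on the opposite strand, shares 8.04% of the exonic bases of Itga4, and Rtraf, also on the opposite strand, 8.45% of those of Nid2. Cerkl had 88.3 TPM in cerebellum, 10.4 and 9.61 TPM in cortex and hippocampus, and 2.08 TPM in glia. Rtraf lay between 221 TPM in hippocampus and 990 TPM in OG2 MEF. The sources used here do not give the strandedness of the libraries, and the part of these overlaps was not tested. Itga9 stayed at or under 7.45 TPM.

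The leukocyte α chains were low outside glia, cortex and hippocampus. Itgam, the CD11b chain of microglia and myeloid cells (chromosome 7, bases 128062640 to 128118491), had 0.23 TPM in neuron, 24.6 TPM in glia, 2.79, 24.4 and 13.1 TPM in cerebellum, cortex and hippocampus, 3.59 TPM in the library labelled R1 ESC, and 2.44 and 1.09 TPM in ICR MEF and OG2 MEF. Glia over cortex was 1.01-fold (0.83 to 1.23) with the deposited lengths, 4487 bases in glia and 2810 bases in cortex. With 1 length per gene it was 1.66-fold, with 25.6 TPM in glia and 15.5 TPM in cortex. Neuron was 109-fold below glia, on 3 counts (36.9 to 531), and glia 10.1-fold above ICR MEF (5.23 to 22.2), or 34.6-fold with 1 length. With 1 length the higher MEF library was OG2 MEF, with 1.13 TPM against 0.74 TPM in ICR MEF, the latter on 9 counts. The call over MEF ended with 5 TPM added, at 1.99 (log2). Cerebellum was 4.70-fold below hippocampus (3.04 to 7.51), which missed the call with 1 TPM added and met it with 0.1 TPM added. The gene model Gm49368, not analysed here, shares 68.7% of the exonic bases of Itgam on the same strand. The 6 microglia markers summed to 35.2 TPM in neuron, 318 TPM in glia, 75.6, 293 and 278 TPM in cerebellum, cortex and hippocampus, 6.75 TPM in the library labelled R1 ESC, and 67.5 and 71.9 TPM in ICR MEF and OG2 MEF. Tmem119 made up 61.1 and 56.6 TPM of the last pair, and Aif1 was at 0 counts in ICR MEF. The summed microglia list thus stood in the same order over neuron, glia and the brain regions as Itgam. Single genes of the list differed. C1qa had 161 TPM in glia and 91.1 TPM in cortex, and Csf1r and Aif1 were also higher in glia than in cortex. Cx3cr1, P2ry12 and Tmem119 were lower in glia than in cortex, P2ry12 with 5.92 TPM in glia and 51.8 TPM in cortex. The part of the list was not tested.

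Itgal, the LFA-1 chain, was near the 10 TPM floor at 10.01 TPM in glia, and lay at or under 1.45 TPM elsewhere. Glia was 6.91-fold above cerebellum (3.90 to 13.3), 23.2-fold above OG2 MEF (10.9 to 58.7), and neuron 58.0-fold below glia on 2 counts (15.7 to 484). These 3 calls ended with 5 TPM added, at -1.54 for neuron over glia, 1.22 for glia over brain and 1.47 for glia over MEF (log2). With either set of TMM factors Itgal in glia fell under the floor of 10 TPM, and the log2 values stood at -3.04 and -2.74 for neuron over glia, 2.13 and 2.09 for glia over brain, and 2.73 and 2.48 for glia over MEF, all past 4-fold. The 4 T cell markers were at 0 counts in glia. Itgad reached 2.72 TPM in hippocampus, Itgae 0.52 TPM and Itgax 0.56 TPM.

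Different laminin α chains led in glia and in MEF. Lama5, the α5 chain of many mature basement membranes (chromosome 2, bases 180176373 to 180225859), had 5.49 TPM in neuron, 165 TPM in glia, 1.67, 4.61 and 2.59 TPM in cerebellum, cortex and hippocampus, 22.7 TPM in the library labelled R1 ESC, and 35.1 and 19.4 TPM in ICR MEF and OG2 MEF. Glia was 35.8-fold above cortex (28.9 to 44.9) and 4.71-fold above ICR MEF (4.32 to 5.14), of which the second ended with TMM factors of the counts, at 1.97 (log2), and of the TPM, at 1.72. Neuron was 30.1-fold below glia (20.8 to 45.3), and 130-fold with 1 length per gene. With 1 length Lama5 came to 1.25 TPM in neuron, 163 TPM in glia, 2.32 TPM in the library labelled R1 ESC, and 30.3 and 20.2 TPM in ICR MEF and OG2 MEF. The library labelled R1 ESC was then called lower than MEF, at -2.67 (log2). Lama5 made up 86.3% of the laminin α TPM of glia, and stood 8.93-fold above Lama2 (8.10 to 9.86).

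Lama4, the α4 chain of vessels and mesenchyme (chromosome 10, bases 38965515 to 39110188), led in MEF, at 59.5% of the laminin α TPM in ICR MEF and 65.5% in OG2 MEF. It had 4.67 TPM in neuron, 6.62 TPM in glia, 3.36, 4.24 and 7.40 TPM in cerebellum, cortex and hippocampus, 49.6 TPM in the library labelled R1 ESC, and 78.9 and 61.0 TPM in ICR MEF and OG2 MEF. Glia was 9.21-fold below OG2 MEF (7.55 to 11.3) and hippocampus 8.25-fold below it (5.55 to 12.8), or 17.2-fold with 1 length per gene. With 1 length the highest brain region was cortex, with 5.39 TPM against 3.46 TPM in hippocampus and 59.6 TPM in OG2 MEF. With 1 length, Lama4 came to 0.51 TPM in neuron and 16.0 TPM in the library labelled R1 ESC.

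Lama2, the merosin chain around muscle and Schwann cells, was highest in glia and led the laminin α chains in cerebellum and cortex. It had 0.55 TPM in neuron, 18.5 TPM in glia, 9.13, 6.81 and 6.12 TPM in cerebellum, cortex and hippocampus, 1.94 TPM in the library labelled R1 ESC on 3 counts, and 17.2 and 11.6 TPM in ICR MEF and OG2 MEF. Neuron was 33.8-fold below glia (20.6 to 59.6), and the library labelled R1 ESC 6.002-fold below OG2 MEF (2.03 to 29.3), or 85.1-fold with 1 length per gene. That call ended with 5 TPM added, at -1.26 (log2), and with TMM factors of the counts, at -1.62, or of the TPM, at -0.75. Lama1, the chain of early embryonic basement membranes, stayed at or under 1.92 TPM, and Lama3, an epithelial chain, at or under 3.60 TPM. The laminin α genes summed to 16.8 to 20.5 TPM in the brain regions, against 191 TPM in glia.

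The leading β chain differed too. Lamb2, the β2 chain of vascular and synaptic basement membranes (chromosome 9, bases 108479736 to 108490530), had 1.24 TPM in neuron, 223 TPM in glia, 18.3, 17.4 and 22.2 TPM in cerebellum, cortex and hippocampus, 9.86 TPM in the library labelled R1 ESC, and 88.4 and 72.6 TPM in ICR MEF and OG2 MEF. It made up 91.8% of the laminin β TPM of glia. Neuron was 179-fold below glia (117 to 290.4), and glia 10.1-fold above hippocampus (8.26 to 12.4), or 15.8-fold with 1 length. With 1 length hippocampus was the lowest brain region, with 14.3 TPM against 17.7 TPM in cerebellum, 17.4 TPM in cortex and 225 TPM in glia. The library labelled R1 ESC was 7.37-fold below OG2 MEF (6.21 to 8.78). The last call ended with TMM factors of the TPM, at -1.11 (log2), and with CPM, at -1.28. Lamb1, the widespread β1 chain (chromosome 12, bases 31265234 to 31329644), led in MEF at 61.2% in ICR MEF and 62.05% in OG2 MEF. It had 7.02 TPM in neuron, 19.5 TPM in glia, 22.6, 11.9 and 23.0 TPM in cerebellum, cortex and hippocampus, 3.13 TPM in the library labelled R1 ESC, and 140.3 and 119 TPM in ICR MEF and OG2 MEF. Glia lay within the range of the brain regions for Lamb1, 6.10-fold below OG2 MEF (5.29 to 7.05). Hippocampus was 5.18-fold below OG2 MEF (4.44 to 6.08), and the library labelled R1 ESC 38.01-fold (28.8 to 51.2). Neuron was 2.78-fold below glia (2.22 to 3.51), which met no call. Lamb3, a chain of epithelial laminin, was highest in the library labelled R1 ESC, at 3.81 TPM.

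Lamc1, the γ chain of most laminins (chromosome 1, bases 153218922 to 153332786), had 2.33 TPM in neuron, 209 TPM in glia, 17.0, 21.4 and 22.9 TPM in cerebellum, cortex and hippocampus, 3.67 TPM in the library labelled R1 ESC, and 139 and 104 TPM in ICR MEF and OG2 MEF. Neuron was 89.6-fold below glia (63.7 to 130.3), glia 9.14-fold above hippocampus (7.86 to 10.7), hippocampus 4.54-fold below OG2 MEF (3.89 to 5.32), and the library labelled R1 ESC 28.3-fold below it (20.8 to 39.3). With 5 TPM added the call of the brain regions below MEF ended, at -1.97 (log2). Lamc3 stayed at or under 3.07 TPM, highest in cortex.

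**Figure D5:**
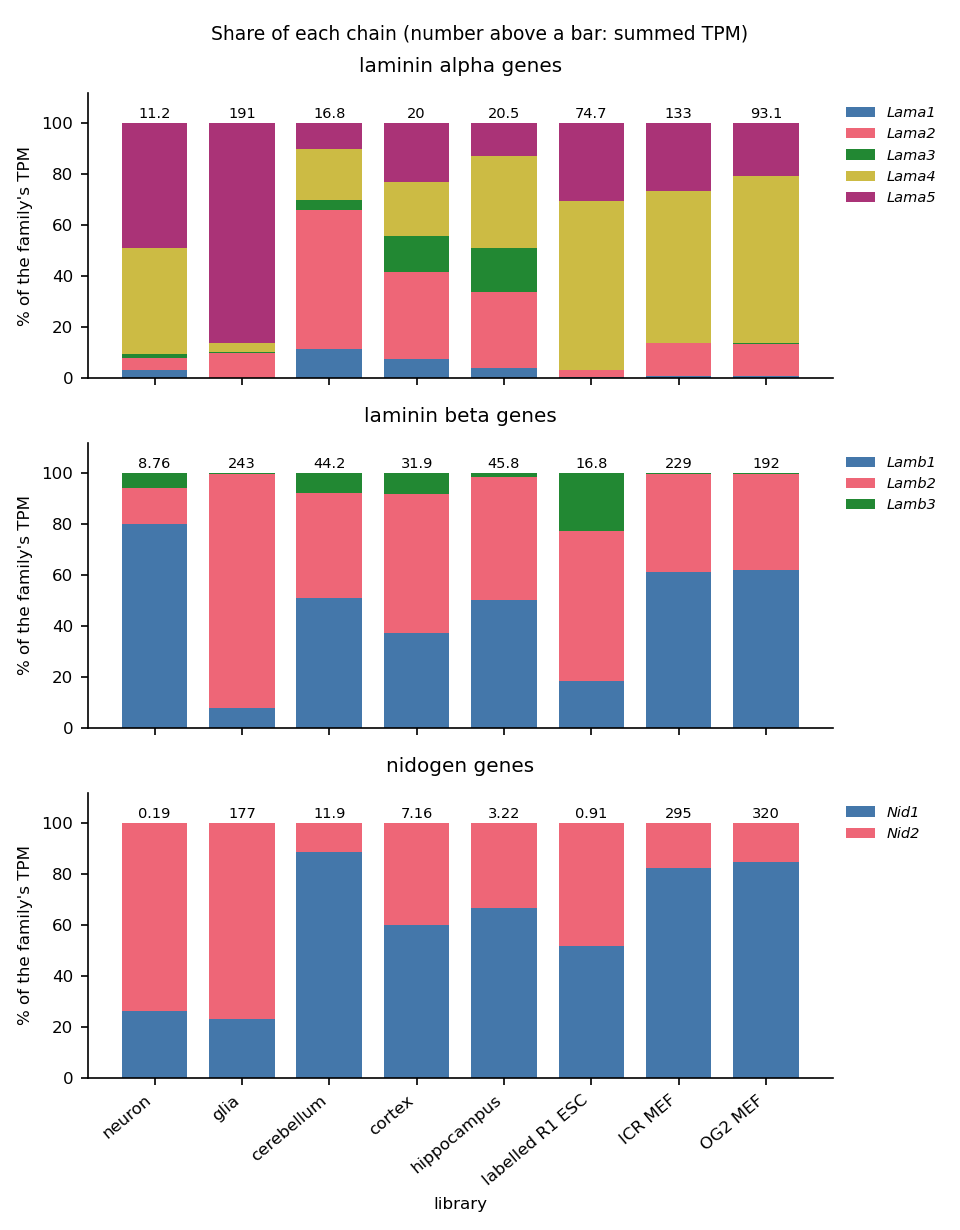
Share of each gene in the summed TPM of the laminin α genes, the laminin β genes and the nidogens (bars to 100%), by library, with the summed TPM above each bar. Lama5, Lamb2 and Nid2 fill most of the glia bars, at 86.3%, 91.8% and 76.7%, and Lama4, Lamb1 and Nid1 lead in both MEF libraries.

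The nidogens divided in the same way. Nid1 (chromosome 13, bases 13437551 to 13512269) had 0.05 TPM in neuron, 41.2 TPM in glia, 10.6, 4.29 and 2.15 TPM in cerebellum, cortex and hippocampus, 0.47 TPM in the library labelled R1 ESC, and 243 and 272 TPM in ICR MEF and OG2 MEF. Glia was 5.89-fold below ICR MEF (5.43 to 6.398), cerebellum 23.0-fold (19.5 to 27.2), and the library labelled R1 ESC 516-fold on 8 counts (262 to 1197). Nid2 (chromosome 14, bases 19751265 to 19811787) had 0.14 TPM in neuron, 136 TPM in glia, 1.33, 2.87 and 1.07 TPM in cerebellum, cortex and hippocampus, 0.44 TPM in the library labelled R1 ESC, and 52.3 and 48.5 TPM in ICR MEF and OG2 MEF. Glia was 47.3-fold above cortex (33.2 to 69.8), and cortex 16.9-fold below OG2 MEF (11.8 to 25.02). For Nid2 the library labelled R1 ESC was 110.4-fold below OG2 MEF, on 6 counts (50.5 to 302). Neuron held 1 count of Nid1 and 2 of Nid2, against 684 and 1809 in glia. Nid2 exceeded Nid1 3.30-fold in glia (3.02 to 3.61), and Nid1 exceeded Nid2 4.64-fold in ICR MEF (4.27 to 5.03), 5.60-fold in OG2 MEF (5.18 to 6.06) and 7.94-fold in cerebellum (4.68 to 14.6).

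The genes that work with these families were read from 4 lists. Their counts stand beside the shares of all genes given above, which were 10.4% higher and 30.5% lower in neuron than in glia, 6.19% higher and 8.10% lower in glia than in brain, 10.05% higher and 2.92% lower in glia than in MEF, and 14.5% higher and 5.68% lower in brain than in MEF. In the library labelled R1 ESC they were 4.49% above and 44.6% below MEF, and in cerebellum 2.25% above and 3.01% below cortex and hippocampus. Nothing particular to a list is read from them. Of the integrin adhesion complex, the proteins that join integrin tails to actin, 0 of 16 genes at 10 TPM or more were called higher in neuron than in glia and 11 were called lower. Vinculin (Vcl) had 0.64 TPM in neuron and 213 TPM in glia, and Actn1, an α-actinin, 19.7 TPM in neuron and 535 TPM in glia. Tns3, a tensin, had 0.80 TPM in neuron and 203 TPM in glia, and Fermt2, kindlin-2, which activates integrins, 8.65 TPM in neuron and 215 TPM in glia. The list's median difference was -3.08 over its 19 genes averaging 1 TPM or more. Glia was above the brain regions for 5 of 18 and below for 0. Against MEF, 0 of 18 were called in either direction for glia, 6 of 18 were lower in the brain regions, and 15 of 18 lower in the library labelled R1 ESC. The medians were 1.65 for glia over brain, -0.03 for glia over MEF, -1.28 for brain over MEF and -3.49 for the library labelled R1 ESC over MEF, on the same log2 scale as the medians over all genes above.

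Of the other basement membrane genes, 9 of 11 were lower in neuron than in glia and 0 higher, and 7 of 12 higher in glia than in brain and 0 lower, with median log2 differences of -4.69 and 3.30 over 14 genes. Col4a5, a type IV collagen chain, had 0.37 TPM in neuron, 179 TPM in glia, 2.95 to 5.14 TPM in the brain regions, and 45.8 and 40.8 TPM in ICR MEF and OG2 MEF. Against MEF, 4 of 12 were higher in glia and 0 lower, led by Col4a6 with 80.4 TPM in glia and 2.68 and 2.09 TPM in ICR MEF and OG2 MEF, and Ntn4, a netrin that binds laminin γ chains, with 145 TPM in glia and 5.82 and 5.67 TPM in ICR MEF and OG2 MEF. In the brain regions 4 of 11 were lower than in MEF, led by Hspg2, perlecan, with 3.31 to 4.51 TPM in the brain regions and 320 and 282 TPM in ICR MEF and OG2 MEF. In the library labelled R1 ESC 8 of 11 were lower than in MEF. The medians against MEF were 1.12 for glia, -1.48 for the brain regions and -2.74 for the library labelled R1 ESC. Cerebellum was called above cortex and hippocampus for 2 of 9, Col18a1 with 54.5 TPM in cerebellum and 3.39 and 1.55 TPM in cortex and hippocampus, and Ntn4 with 28.4 TPM in cerebellum and 5.53 and 4.36 TPM in cortex and hippocampus.

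Other integrin ligands were lower in neuron than in glia for 10 of 10, and higher in glia than in brain for 7 of 11, with 1 lower. Fibronectin, Fn1, had 8.63 TPM in neuron, 1018 TPM in glia, 23.9 to 37.5 TPM in the brain regions, 41.1 TPM in the library labelled R1 ESC, and 2541 and 2036 TPM in ICR MEF and OG2 MEF. Thrombospondin 1, Thbs1, had 0.91 TPM in neuron, 615 TPM in glia, 3.52 to 4.08 TPM in the brain regions, and 1726 and 1773 TPM in ICR MEF and OG2 MEF. Vitronectin, Vtn, a ligand of αvβ5, ran the other way, with 0.36 TPM in glia and 66.1 to 89.2 TPM in the brain regions, and it had 0 counts in neuron and both MEF libraries. Against MEF, 7 of 11 were lower in the brain regions and 1, Vtn, higher, 8 of 10 lower in the library labelled R1 ESC, and 1 of 10, Fbn1, lower in glia. The list's medians over 12 genes were -4.05 for neuron over glia, 3.13 for glia over brain, and -0.26, -3.06 and -4.53 over MEF for glia, the brain regions and the library labelled R1 ESC.

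The laminin receptors that are no integrins were lower in neuron than in glia for 6 of 8, and higher in glia than in brain for 3 of 8. Dag1, dystroglycan, which binds laminin α chains, had 15.4 TPM in neuron, 327 TPM in glia, 53.5 to 60.4 TPM in the brain regions, 1.76 TPM in the library labelled R1 ESC, and 114 and 93.5 TPM in ICR MEF and OG2 MEF. Against MEF, 2 of 9 were higher in glia, Bcam and Sgcb. Bcam, a receptor for laminin α5, had 40.3 TPM in glia and 9.11 and 3.68 TPM in ICR MEF and OG2 MEF, and Sgcb, a sarcoglycan, 69.5 TPM in glia and 14.6 and 16.5 TPM in ICR MEF and OG2 MEF. In the library labelled R1 ESC 6 of 8 were lower than in MEF and 1 was higher. That gene, Rpsa, encodes a ribosomal protein that has also been described as a laminin receptor, and it had 20918 TPM in the library labelled R1 ESC and 2531 and 2697 TPM in ICR MEF and OG2 MEF, beside the ribosomal share given above. In the brain regions 2 of 9, Sdc1 and Rpsa, were lower than in MEF, and cerebellum was called above cortex and hippocampus for 1 of 8, the syndecan Sdc1, with 10.8 TPM in cerebellum and 1.38 and 0.21 TPM in cortex and hippocampus. The medians over 9 genes were -3.93 for neuron over glia, 1.82 for glia over brain, and 1.08, -1.05 and -3.21 over MEF for glia, the brain regions and the library labelled R1 ESC. No gene of the 4 lists was called between cortex and hippocampus or between ICR MEF and OG2 MEF.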

How the data were processed

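Total RNA had been taken up in Trizol and sequenced after the Illumina TruSeq RNA kit, per the labels, and the submitters' processing notes name Bowtie, RSEM and the build mm10, without versions. Expected counts, TPM, FPKM and effective lengths per gene were deposited by the authors, per the file headers, and the FPKM were not used in any result. The deposited TPM of 10 or more were recomputed from expected counts and effective lengths to within 1% for 99.9% of values. The sources used here give neither the annotation release nor the strandedness. Gene coordinates were taken from GENCODE M21 (GRCm38) by gene identifier, and promoter windows from RefSeq (GRCm38.p6), which held 24 of the 39 genes.

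The 39 genes, the 4 partner lists and the 12 marker lists were chosen with earlier results of these data known. At most 4 called genes per partner list and comparison, those of the largest log2 ratio, could be named. A gene counted as measurable in a comparison when 1 of its libraries had 10 TPM or more, and the calling rule ran over all such genes. The counts of genes, sums and medians cover all 39 genes, of which 1 is not reported here by itself. In folds, 3 counts stood for a count of 0. Folds with 1 length per gene kept the libraries chosen on the deposited TPM. The rule was tested on simulated data. Alternatives were 0.1 or 5 TPM added, no floor, TMM factors of counts or of TPM (edgeR 4.0.16, R 4.3.3, on expected counts rounded to whole numbers), CPM with no length term, leaving out each library where a side had more than 1, and, added after seeing the data, 1 effective length per gene. Tables were handled with pandas 2.3.3 and numpy 2.4.6 in Python 3.11.15, intervals came from scipy 1.17.1 and plots from matplotlib 3.10.9. Total expected counts lay between 2147004 and 5864673 per library, and the exact 95% intervals cover counting error alone.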

Additional observations from a re-analysis of the deposited data

How the results depend on the processing

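Over the 8 comparisons 64 calls were made for genes of these families, and 49 of them held with 5 TPM added, both sets of TMM factors, CPM and 1 effective length per gene. With 5 TPM added 12 calls were lost, with TMM factors of the TPM 10, with those of the counts 7, under CPM 2 and with 1 effective length none. Adding 0.1 TPM, dropping the floor or leaving out a library can by construction only add calls. Among the 15 calls lost under at least 1 setting were Itgav, Itgal and Itgb2 for neuron with glia, Itga6 and Itgal for glia with brain, Itgal, Itgam and Lama5 for glia with MEF, Lamc1 for brain with MEF, and Itga3, Itga5, Itga6, Lama2 and Lamb2 for the library labelled R1 ESC with MEF. Direction reversed for 2 uncalled values. Lama4 in neuron over glia stood at 0.28 (log2) with TMM factors of the TPM, and Itgav in the library labelled R1 ESC over MEF at -1.18 with CPM and -2.26 with 1 length.

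Counts of called genes moved in several comparisons, not all of them listed here. With TMM factors of the TPM, Itgav, Lama5 and Lamb2 were also called lower in the brain regions than in MEF. With no floor, Itga1, Itga8 and Itga9 were also called lower in the library labelled R1 ESC than in MEF. Genes higher in glia than in MEF numbered 4 in place of 7 with 5 TPM added and 4 with TMM factors of the TPM. Genes lower in glia than in brain numbered 1 in place of 0 with CPM (Itgb4), and 0 to 1 with a library left out. Genes higher in the brain regions than in MEF numbered 1 to 2 with a library left out. Genes higher in the library labelled R1 ESC than in MEF numbered 2 in place of 1 with TMM factors of the counts, 4 with those of the TPM and 3 with CPM. In cerebellum 1 gene (Itgb7) was higher with no floor and 1 (Itgam) lower with 0.1 TPM added, with CPM and with 1 length, in place of 0, and both counts were 0 to 1 with a library left out. The cause of these shifts was not tested. No paired analysis was possible because each group held 1 library. Differences on fewer than 10 counts have wide intervals.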
